A study of Rattus norvegicus with 13 samples.

Results

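The expression of 9 genes for cell surface adhesion molecules was compared between cultures of skin-derived precursors (SKPs) from 3 regions of rat skin and mesenchymal stromal cells (MSCs). The 9 genes were Cntn6, Mdga2, Ncam1 and Cdh7, best known from neural tissue and its precursors, and Alcam, Vcam1, Emb, Cd44 and Thy1, best known from stromal, vascular and blood cells. They are 9 of the 14506 genes that the array's annotation names by a single symbol, each was read by 1 probe set, and all 9 were measured. They were picked by name with differences between these same arrays already known, so their own differences are a description. An adjusted p of a member is printed only where another setting ends its call, to show by how much. SKPs are cultured dermal precursor cells that can give rise to neural and mesodermal cell types, and MSCs are plastic-adherent stromal cells used here as the reference. The 13 Affymetrix Rat Gene 1.0 ST arrays held 3 independent isolates each of dorsal trunk, facial and ventral trunk SKPs and 4 isolates of MSCs. All came from adult Sprague Dawley rats, and all cells had been passaged 2 times. No transgene or treatment is named for any group, and the sources used here give neither the tissue the MSCs came from nor the culture media.

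Adhesion molecules of the immunoglobulin superfamily bind partners on neighbouring cells, either copies of themselves or other receptors, and many also signal into the cell. Cadherins join cells of like kind through calcium-dependent contacts tied to catenins, and CD44 holds cells to hyaluronan in the matrix. The dermis of the face is made by neural crest cells, that of the back by somites and that of the belly by lateral plate mesoderm, and several of these molecules are used by migrating neural crest cells. The arrays therefore allow the question of how far SKPs of different regional origin carry the same adhesion genes and how they differ from MSCs.

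Values are log2 expression after robust multi-array averaging (RMA), and a gene was called above background in a group when its mean exceeded the 95th percentile of 1105 olfactory receptor genes there. That limit was 3.94 in ventral SKPs, 4.04 in MSCs and 4.03 in both dorsal and facial SKPs. Where the lower group was not above background, the fold is a bound taken against the limit and is written as at least. These were bulk cultures, so fewer cells of a type and less RNA per cell cannot be told apart. Array medians lay between 4.91 and 5.01. The third dorsal array stood apart from its group, with 9.55% and 7.67% of genes more than 2-fold from the first and second dorsal arrays, against 2.07% between those. MSC arrays 1 and 2 differed in 0.758% of genes and arrays 3 and 4 in 2.25%, but 4.61% to 6.58% differed across the pairs.

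All 10 measured SKP marker genes and all 9 measured MSC marker genes were above background in all 4 groups, and the MSC list holds Alcam, Vcam1, Cd44 and Thy1 themselves. The share of all genes above background ran from 71.9% (MSCs) to 72.8% (ventral SKPs) over the 4 groups. Marker counts near that share do not by themselves identify a cell type. Of 21 macrophage and leukocyte genes, 21 were above background in facial SKPs, 19 in both dorsal and ventral SKPs and 16 in MSCs. Their mean was 6.39 to 10.12 on the facial arrays, 4.25 to 7.24 on the dorsal arrays, 5.29 to 5.65 on the ventral arrays and 4.25 to 4.79 on the MSC arrays. Endothelial genes were above background for 11 of 11 in ventral SKPs and 5 of 11 in each other group. Of 12 neuronal genes, 7 were above background in dorsal SKPs and 5 in each other group. On single arrays the number was 4 to 6 for dorsal, 3 to 5 for facial and 5 to 6 for ventral SKPs and 3 to 6 for MSCs. Tubb3, Stmn2, Rbfox3 and Syp were above the limit in every group. Elavl3, Elavl4, Dcx, Syt1 and Prph were below it in every group. Snap25 was above it in all SKP groups and not in MSCs, Nefl in dorsal SKPs and MSCs, and Nefm in dorsal SKPs alone. Of 12 Schwann and glial genes, 8 to 10 were above background. Sox10, S100b, Mbp, Foxd3, Egr2, Pmp22 and Prx were so in every group, and Cdh19 in no group. Mal was so in all SKP groups and not in MSCs, Erbb3 in facial and ventral SKPs, Fabp7 in facial SKPs and Gfap in MSCs. The mean of Egr2 was 10.49 in ventral SKPs and 5.78 to 7.26 in the other groups.

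**Figure D1:**
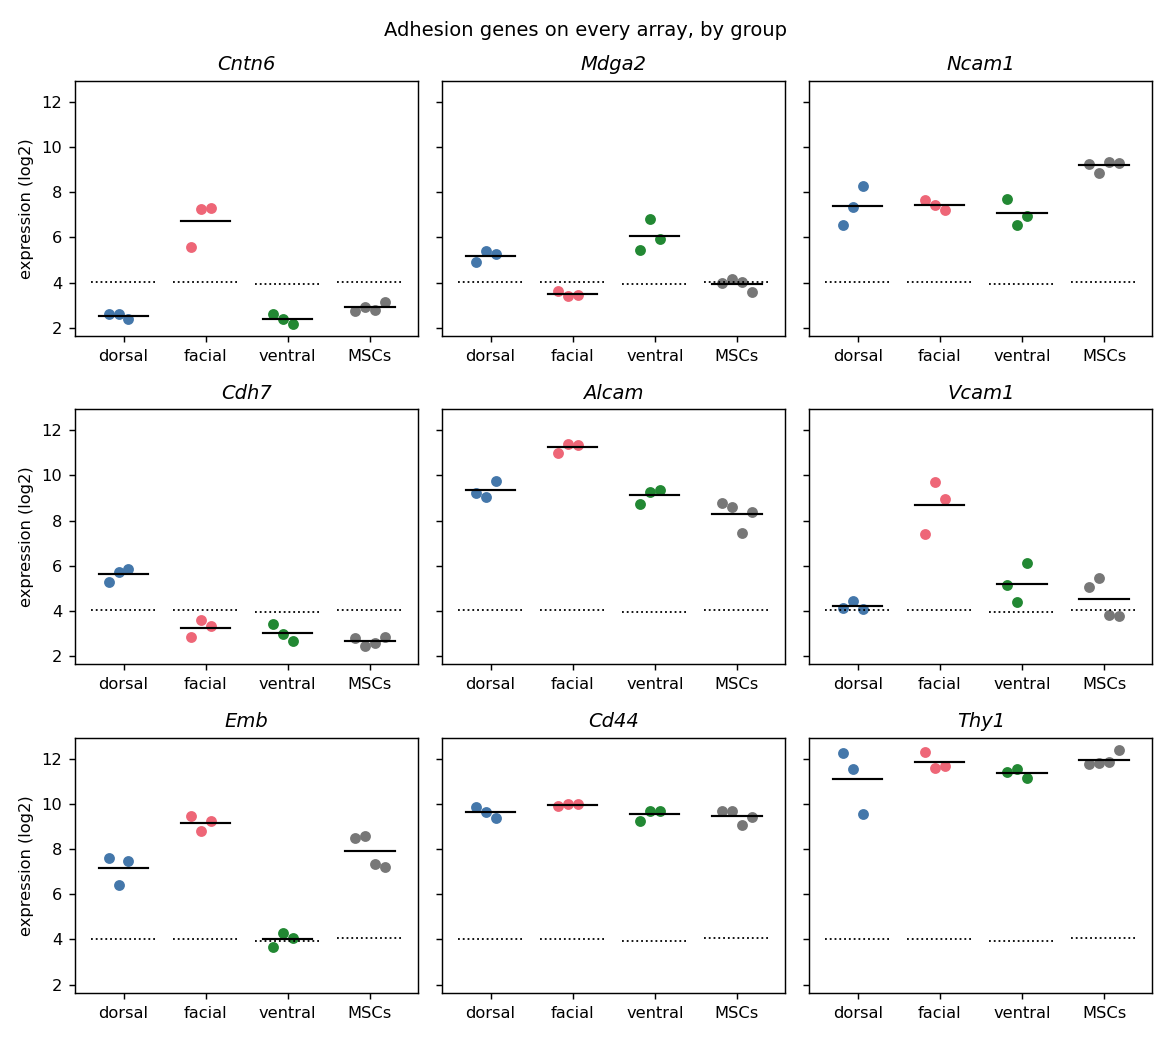
Expression of the 9 adhesion genes on every array (log2, y axis) in dorsal, facial and ventral SKPs and MSCs. Dots are single arrays, solid bars are group means and dotted lines mark the upper limit of background. Cntn6 and Vcam1 were high in facial SKPs, Cdh7 in dorsal SKPs and Ncam1 in MSCs, while Emb was lowest in ventral SKPs.

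Cntn6, encoding contactin-6, a lipid-anchored neural adhesion protein that binds Notch1 in rodents, was above background in facial SKPs and in no other group. The 3 facial arrays read 5.55, 7.25 and 7.30. The dorsal arrays read 2.61, 2.60 and 2.37 and the ventral arrays 2.60, 2.40 and 2.15. The 4 MSC arrays read 2.76, 2.91, 2.80 and 3.14. Every facial array was thus 2.41 or more above every other array, although the first facial array lay well under the other 2. The facial mean of 6.70 ± 1.00 (SD, n = 3) was at least 6.32-fold above MSCs, at least 6.37-fold above dorsal SKPs and at least 6.79-fold above ventral SKPs. The order of the means ran from facial SKPs through MSCs and dorsal SKPs to ventral SKPs, and the last 3, all within background, have no order that can be read.

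Mdga2, encoding a lipid-anchored protein that binds neuroligins and keeps neurexins from them, was above background in the trunk SKPs only. It read 5.45, 6.81 and 5.91 on the ventral arrays and 4.90, 5.40 and 5.24 on the dorsal arrays. It read 3.61, 3.39 and 3.43 on the facial arrays and 3.97, 4.17, 4.03 and 3.56 on the MSC arrays. Ventral and dorsal arrays did not overlap, but the lowest ventral array was 0.05 above the highest dorsal one. Ventral SKPs, at 6.05 ± 0.69 (SD, n = 3), were at least 4.03-fold above MSCs and at least 4.05-fold above facial SKPs. Dorsal SKPs, at 5.18 ± 0.25 (SD, n = 3), were at least 2.2-fold above MSCs and at least 2.21-fold above facial SKPs. With the leukocyte mean as a covariate, the call between facial and dorsal SKPs was lost (limma, adjusted p = 0.216). The log2 difference went from -1.70 to -1.585 with it, and its SE from 0.285 to 0.395. Facial SKPs and MSCs overlapped, both below the limit.

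Cdh7, a type II cadherin known from migrating neural crest cells of the chick, was above background in dorsal SKPs alone. The dorsal arrays read 5.26, 5.72 and 5.86. The facial arrays read between 2.87 and 3.58, the ventral arrays between 2.67 and 3.42 and the MSC arrays between 2.47 and 2.85. The dorsal arrays lay 1.68 or more above all others, and the other 3 groups overlapped one another in the order of their means. The dorsal mean of 5.62 ± 0.31 (SD, n = 3) was at least 2.98-fold above MSCs, at least 3-fold above facial SKPs and at least 3.19-fold above ventral SKPs. The third dorsal array, which stood apart for many genes, was within 0.60 of the other dorsal arrays for Cdh7.

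Ncam1, the neural cell adhesion molecule that binds itself between cells, was the neural gene of the 4 with its highest level in MSCs. The MSC arrays read 9.26, 8.86, 9.32 and 9.28, with a mean of 9.18 ± 0.21 (SD, n = 4). The dorsal arrays read 6.53, 7.32 and 8.28, the facial arrays 7.66, 7.42 and 7.21 and the ventral arrays 7.70, 6.53 and 6.94. No SKP array reached the lowest MSC array, from which the nearest, the third dorsal array, was 0.59 away. The mean of the 3 SKP regions was 3.71-fold below MSCs, a log2 difference of -1.89 ± 0.28 (SE). The 3 SKP regions overlapped throughout, with means of 7.38 ± 0.87 for the back, 7.43 ± 0.23 for the face and 7.06 ± 0.59 for the belly (SD, n = 3 each). With the leukocyte mean as a covariate, the facial difference from MSCs went from -1.75 to -0.79, which did not pass (limma, adjusted p = 0.468).

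Vcam1 encodes the vascular cell adhesion molecule that binds alpha4 integrins on leukocytes and is induced through NF-kappaB in endothelial cells. Its promoter is shown because the gene had the largest regional difference of the stromal members against dorsal SKPs and MSCs, and because the NF-kappaB target genes were examined beside it. The 250 bases before its start on the minus strand, chr2:206742784-206743033 in the RefSeq annotation of GRCr8, are given 5′ to 3′. Capitals mark matches on either strand to the core of NF-kappaB sites, which is GGG and CC with any 5 bases between, and to the TATA box TATAAA.
Vcam1: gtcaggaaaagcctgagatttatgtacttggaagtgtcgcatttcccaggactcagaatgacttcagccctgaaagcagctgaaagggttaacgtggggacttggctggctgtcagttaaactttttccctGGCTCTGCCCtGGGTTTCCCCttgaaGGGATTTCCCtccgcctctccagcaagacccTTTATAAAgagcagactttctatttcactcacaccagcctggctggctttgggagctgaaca
The core matched at 3 stretches, the farthest beginning 119 bases before the start, and it was found in 4 of the 7 members with a promoter in the table (Alcam, Vcam1, Emb and Cd44) and in 43.5% of 27457 rat promoters of the same length. The TATA box was found in 1 of the 7, Vcam1, and in 13.1% of promoters. Both motifs were picked with this promoter already known to hold them, and a match is only a run of letters.

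On the facial arrays Vcam1 read 7.43, 9.70 and 8.97. On the dorsal arrays it read 4.13, 4.45 and 4.10, on the ventral arrays 5.13, 4.39 and 6.11, and on the MSC arrays 5.07, 5.46, 3.81 and 3.79. All facial arrays lay 1.31 or more above all others, the ventral, MSC and dorsal groups overlapped, and the MSCs fell into 2 pairs, with means of 5.27 and 3.80. Facial SKPs, at 8.70 ± 1.16 (SD, n = 3), were 22.3-fold above dorsal SKPs, 11.2-fold above ventral SKPs and 18-fold above MSCs. The log2 difference from MSCs was 4.17 ± 0.57 (SE). The leukocyte means of the facial arrays were 7.81, 6.39 and 10.12 in the same order, the highest group of the 4, and that of the first dorsal array was 7.24. With that mean as a covariate the differences were 4.47 from dorsal SKPs (limma, adjusted p = 0.0824) and 3.48 from ventral SKPs (adjusted p = 0.0731). Neither passed, and the call against MSCs was kept. Without the covariate these differences were 4.48 and 3.49. The SE of the dorsal one went from 0.61 to 0.86 with it. Over all genes, the covariate took the calls from 182 to 36 for facial against dorsal and from 958 to 293 for facial against ventral SKPs.

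Alcam, the homophilic adhesion molecule CD166 that also binds CD6 on T cells, was above background in all groups and highest in facial SKPs. It read 11.01, 11.39 and 11.33 on the facial arrays and 9.22, 9.03 and 9.76 on the dorsal arrays. It read 8.72, 9.26 and 9.37 on the ventral arrays and 8.76, 8.60, 7.46 and 8.39 on the MSC arrays. The facial arrays were 1.25 or more above all others, and the remaining neighbours, dorsal and ventral SKPs and then ventral SKPs and MSCs, overlapped. Facial SKPs, at 11.24 ± 0.21 (SD, n = 3), were 7.67-fold above MSCs, 3.75-fold above dorsal SKPs and 4.37-fold above ventral SKPs. The call between facial and dorsal SKPs was lost with the leukocyte mean as a covariate, at 1.94 (limma, adjusted p = 0.146). It was also lost with the replicate number as a block, at 1.91 (adjusted p = 0.0583). Cd6, the receptor on T cells, was below the limit in every group.

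Emb, encoding embigin, an immunoglobulin protein that escorts lactate transporters to the cell surface, was the member whose SKP regions lay farthest apart. It read 9.47, 8.80 and 9.22 on the facial arrays, and 3.67, 4.27 and 4.07 on the ventral arrays. It read 7.58, 6.40 and 7.47 on the dorsal arrays and 8.50, 8.56, 7.33 and 7.19 on the MSC arrays. The ventral arrays lay 2.13 or more under all others, with a mean of 4.00 ± 0.31 (SD, n = 3) just above the limit, and the facial arrays 0.23 or more above all others. Facial SKPs were 35.8-fold and dorsal SKPs 8.88-fold above ventral SKPs, and MSCs were 14.9-fold above them. With the leukocyte mean as a covariate, the facial difference from MSCs went from 1.27 to 0.69 and that from dorsal SKPs from 2.01 to 1.60, and neither passed (limma, adjusted p = 0.639 and 0.425). Dorsal SKPs and MSCs overlapped, and the MSCs again formed 2 pairs, with means of 8.53 and 7.26. The ventral arrays that were low in Emb were those with the highest endothelial mean, 5.24 to 5.72 against 3.96 to 4.56 on the other 10 arrays; the part of endothelial cells in the difference was not tested.

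Cd44 and Thy1, the hyaluronan receptor and the lipid-anchored protein CD90 that binds integrins, were high in all 4 groups. Cd44 was lowest on MSC array 3, at 9.06, and its means were 9.96 ± 0.06 in facial, 9.63 ± 0.26 in dorsal and 9.54 ± 0.25 in ventral SKPs (SD, n = 3 each) and 9.46 ± 0.30 in MSCs (SD, n = 4). The facial arrays were above all others by 0.03 or more, and the other 3 groups overlapped. Thy1 read 12.24, 11.55 and 9.54 on the dorsal arrays, 12.29, 11.60 and 11.68 on the facial arrays, 11.40, 11.52 and 11.14 on the ventral arrays and 11.74, 11.79, 11.87 and 12.40 on the MSC arrays. The third dorsal array was lowest by far, with a log2 difference of -2.35 from the mean of the other 2 dorsal arrays, and the dorsal SD was 1.40. The log2 differences from MSCs were -0.84 ± 0.48 (SE) for dorsal, -0.10 ± 0.48 for facial and -0.60 ± 0.48 for ventral SKPs. The same array also had the lowest mean of 16 cell cycle genes, 5.22 against 6.16 to 8.75 on the others, and the relation of the 2 readings was not tested.

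**Figure D2:**
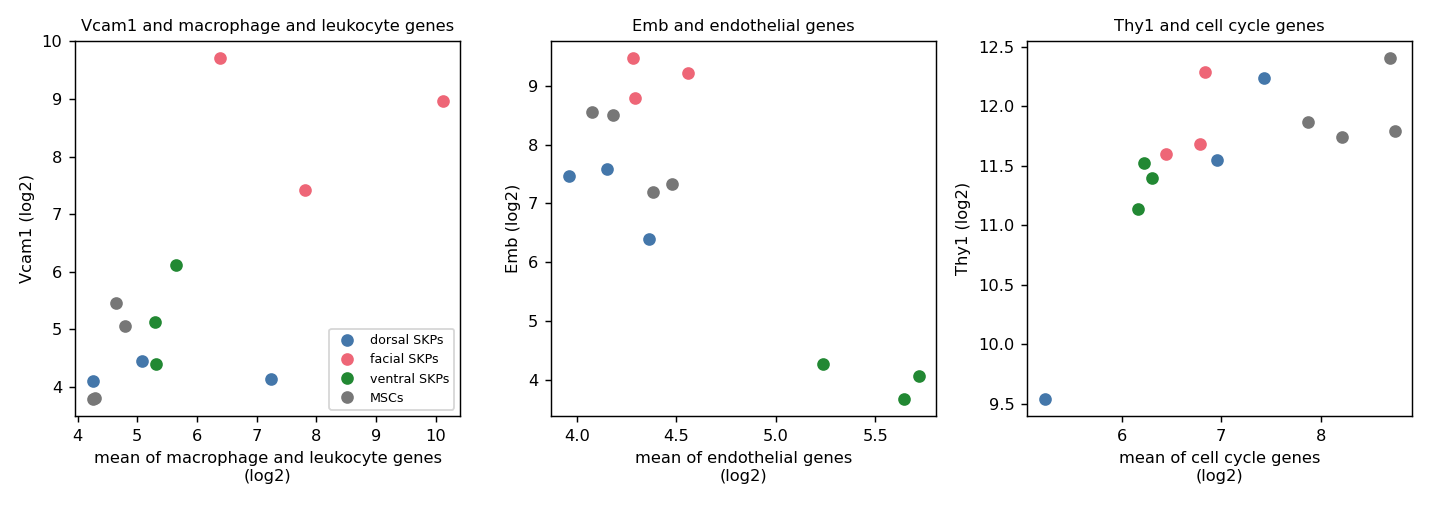
Vcam1 against the mean of 21 macrophage and leukocyte genes, Emb against the mean of 11 endothelial genes and Thy1 against the mean of 16 cell cycle genes, all in log2, with a dot per array coloured by group. The 3 facial arrays were highest in Vcam1 and had leukocyte means of 6.39 to 10.12, the 3 ventral arrays combined low Emb with high endothelial means, and the third dorsal array was lowest for both Thy1 and cell cycle genes.

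In the test of all SKPs against MSCs (limma, adjusted p under 0.05 over all 14506 genes), 7 of 9 members passed, while 25.3% of all genes did. Cntn6, Mdga2, Cdh7, Alcam and Vcam1 were the 5 higher in SKPs, where 13.1% of all genes were, and Ncam1 and Emb the 2 lower, where 12.2% were. The SKP value here is the mean of the 3 region means, so for Cntn6 and Cdh7 it averaged 1 region above background with 2 below it. These SKP values, 3.87 and 3.97, were themselves not above background, as were the MSC means, so no fold is given for them. Of the dorsal differences from MSCs 4 of 9 passed, with a background of 16.5%, and these were Mdga2, Cdh7 and Alcam as higher (8.77% of all genes) and Ncam1 as lower (7.76%). Of the facial differences 5 of 9 passed, with a background of 19.0%, and these were Cntn6, Alcam, Vcam1 and Emb as higher (9.47%) and Ncam1 as lower (9.58%). Of the ventral differences 3 of 9 passed, with a background of 24.4%, and these were Mdga2 as higher (13% of all genes) and Ncam1 and Emb as lower (11.4%). Single MSC arrays decided some of these calls: in all SKPs, Cntn6 did not pass without array 1 or 3 (adjusted p = 0.0541 and 0.0518), Vcam1 without array 3 or 4 (0.0947 and 0.1) and Emb without array 1 or 2 (0.0649 and 0.0669). Alcam in dorsal SKPs did not pass without dorsal array 1 or 3 or MSC array 4 (adjusted p = 0.0588, 0.114 and 0.0566). Emb in facial SKPs did not pass without any single facial or ventral array or without MSC array 3 or 4 (adjusted p = 0.0506 to 0.13). These comparisons share the MSC arrays, and since the members were picked from the differences, nothing is read from their counts.

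Between facial and dorsal SKPs 6 of 9 members passed in limma's test, where 1.25% of all genes did. Cntn6, Alcam, Vcam1 and Emb were higher in facial SKPs (0.793% of all genes) and Mdga2 and Cdh7 lower (0.462%). Between facial and ventral SKPs 5 of 9 passed, with a background of 6.60%, and these were the same 4 as higher (2.25%) and Mdga2 as lower (4.36%). Between dorsal and ventral SKPs 2 of 9 passed, with a background of 6.11%, Cdh7 and Emb as higher (2.35%) and 0 as lower (3.76%). Without facial array 3 the facial against dorsal count was 3, since Mdga2 (adjusted p = 0.056), Alcam (0.0533) and Emb (0.125) no longer passed. The call of Emb between facial and dorsal SKPs did not hold under 12 of 23 alternative settings, among them dorsal array 2 or 3 or any single facial or ventral array left out (adjusted p = 0.0605 to 0.125).

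Single arrays of the groups compared did not overlap for 1 of 9 members, Ncam1, between all SKPs and MSCs, against 12.6% of all genes. By region they did not overlap with MSCs for 5 of 9 in dorsal (22.5%), 7 of 9 in facial (30.1%) and 5 of 9 in ventral SKPs (37.9%). Between regions the numbers were 7 of 9 for facial and dorsal SKPs (17.4%), 7 of 9 for facial and ventral SKPs (36.4%) and 3 of 9 for dorsal and ventral SKPs (28.7%). The arrays of 1 group lay all above or all below those of the other 3 groups for 8 of 9 members, Thy1 being the exception, and for 25.3% of all genes.

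**Figure D3:**
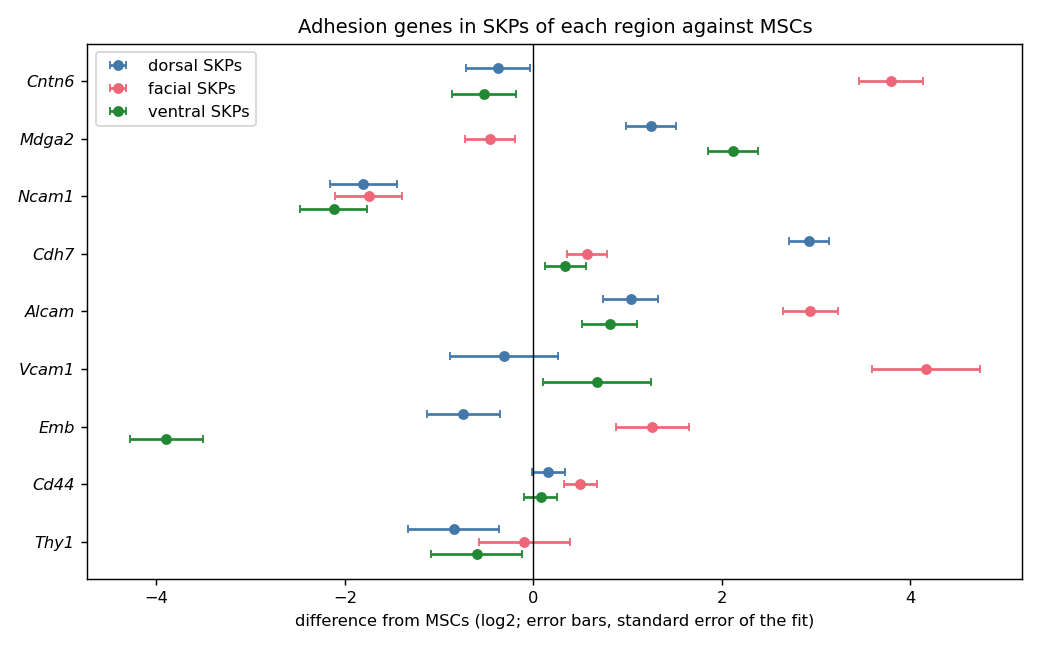
Difference of each SKP region from MSCs for the 9 genes (log2, x axis), with error bars for the standard error of the fit. The facial differences of Cntn6, Alcam and Vcam1 were the largest of their genes, Ncam1 was below 0 in all 3 regions, and Emb ran from -3.89 in ventral SKPs to 1.27 in facial SKPs.

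Of 15 measured binding partners of the neural members, 6 rose in SKPs against MSCs and 0 fell (limma, adjusted p under 0.05), where 13.1% of all genes rose and 12.2% fell, and at an unadjusted p under 0.05 the counts were 7 and 1. Without facial array 2 or MSC array 3 the number that fell was 1. The median log2 difference was 0.23, against -0.02 over all genes. Ptprz1, the receptor tyrosine phosphatase that binds contactin-1, read 6.33 to 9.75 on the SKP arrays and 2.62 to 3.46 on the MSC arrays, where it was below the limit. It rose by 4.80 ± 0.26 on the log2 scale (SE; limma, adjusted p = 2.8e-07), at least 13.7-fold against the limit, and among SKPs it was higher in dorsal than in ventral cultures by 2.33 (adjusted p = 0.00406). St8sia4, which adds polysialic acid to NCAM, read 5.64 to 7.31 on the SKP arrays and 3.77 to 4.08 on the MSC arrays, and rose by 2.65 ± 0.19 (adjusted p = 1.76e-06), at least 5.63-fold. The SKPs thus held more mRNA of this enzyme and less of its substrate Ncam1 than the MSCs. St8sia2, the other polysialyltransferase, was below the limit in every group.

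Fgfr1, the growth factor receptor through which NCAM is known to signal, rose by 2.44 ± 0.28 in SKPs (limma, adjusted p = 6.55e-05). It read 10.88 to 11.96 on the 9 SKP arrays and 8.13 to 9.86 on the MSC arrays, without overlap. Notch1, the receptor for contactin-6, did not pass between SKPs and MSCs, with a difference of 0.57 ± 0.25 (adjusted p = 0.12), though without dorsal array 3 and facial array 3 it passed, at 0.50 (adjusted p = 0.0326). Within SKPs Notch1 was lower in dorsal than in ventral cultures by a log2 difference of -2.16 (adjusted p = 0.00424). Of the neuroligins bound by Mdga2, Nlgn1 was below the limit in every group and Nlgn3 differed by 0.23 (adjusted p = 0.175). Nlgn2 passed at 0.40 ± 0.12 (adjusted p = 0.0268), a call that did not hold under 7 of 23 alternatives, among them leaving out MSC array 1 (0.35, adjusted p = 0.0848), 3 (0.40, adjusted p = 0.0563) or 4 (0.34, adjusted p = 0.0931) and ventral array 3 (0.38, adjusted p = 0.0505).

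Among the contactin, NCAM, L1 and IgLON relatives of the neural members, 4 of 17 measured genes rose in SKPs against MSCs and 2 fell (limma; all genes 13.1% and 12.2%), with a median log2 difference of -0.05. Without MSC array 2 the number that rose was 2, and without dorsal array 1 or 2, MSC array 3 or any single facial or ventral array the number that fell was 1. Contactin-1, encoded by Cntn1, was the relative with the largest rise. It read 7.13 to 9.08 on the SKP arrays and 3.67 to 4.14 on the MSC arrays, where its mean was below the limit, and rose by 4.53 ± 0.27 (adjusted p = 4.62e-07), at least 21.5-fold. Unlike Cntn6, it was above background in all 3 SKP regions. Ntm, encoding the IgLON protein neurotrimin, fell by 2.19 ± 0.43 (adjusted p = 0.00265), with no SKP array above 6.49 and an MSC mean of 7.68. Nfasc, encoding neurofascin, rose by 0.93 (adjusted p = 0.0204), but not without MSC array 2 (0.80, adjusted p = 0.0733) or 4 (0.92, adjusted p = 0.0532). Negr1, at least 1.15-fold higher in SKPs (adjusted p = 0.046), and Cntn2, at least 2.41-fold lower (adjusted p = 0.0399), each lost their call under 15 of 23 alternatives, among them single arrays of every group left out (without MSC array 3, adjusted p = 0.154 for Negr1 and 0.127 for Cntn2). Cntn2 read 4.15, 4.15, 6.71 and 6.08 on the MSC arrays and 3.51 to 4.18 on the SKP arrays.

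Among type II cadherins and catenins, 5 of 12 measured genes rose in SKPs against MSCs and 1 fell (limma; all genes 13.1% and 12.2%; median log2 difference 0.18). Without MSC array 1 or 2 the number that rose was 3. Cdh6, a type II cadherin of early neural crest cells, read 7.68, 8.30 and 7.82 on the facial arrays. The dorsal arrays read 3.66 to 3.93, the ventral arrays 3.84 to 4.57 and the MSC arrays 2.97 to 3.81. The high arrays of Cdh6 were thus the facial ones, and those of Cdh7 the dorsal ones. Cdh6 was at least 15-fold higher in facial than in dorsal SKPs, where it was below the limit (adjusted p = 5.7e-06), and higher than in ventral SKPs by 3.71 on the log2 scale (adjusted p = 6.29e-06). Jup, encoding plakoglobin, rose by 0.85 (adjusted p = 0.0186), but not without MSC array 1 (0.74, adjusted p = 0.065) or 2 (0.71, adjusted p = 0.0702). Ctnnd2, at 1.19 (adjusted p = 0.0491), did not hold under 14 of 23 alternatives, 9 of them single arrays left out (without MSC array 4, adjusted p = 0.147). Ctnnd1, encoding p120-catenin, fell by 0.41 (adjusted p = 0.011), but not with the replicate block (-0.32, adjusted p = 0.0661) or the leukocyte covariate (-0.39, adjusted p = 0.0921).

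**Figure D4:**
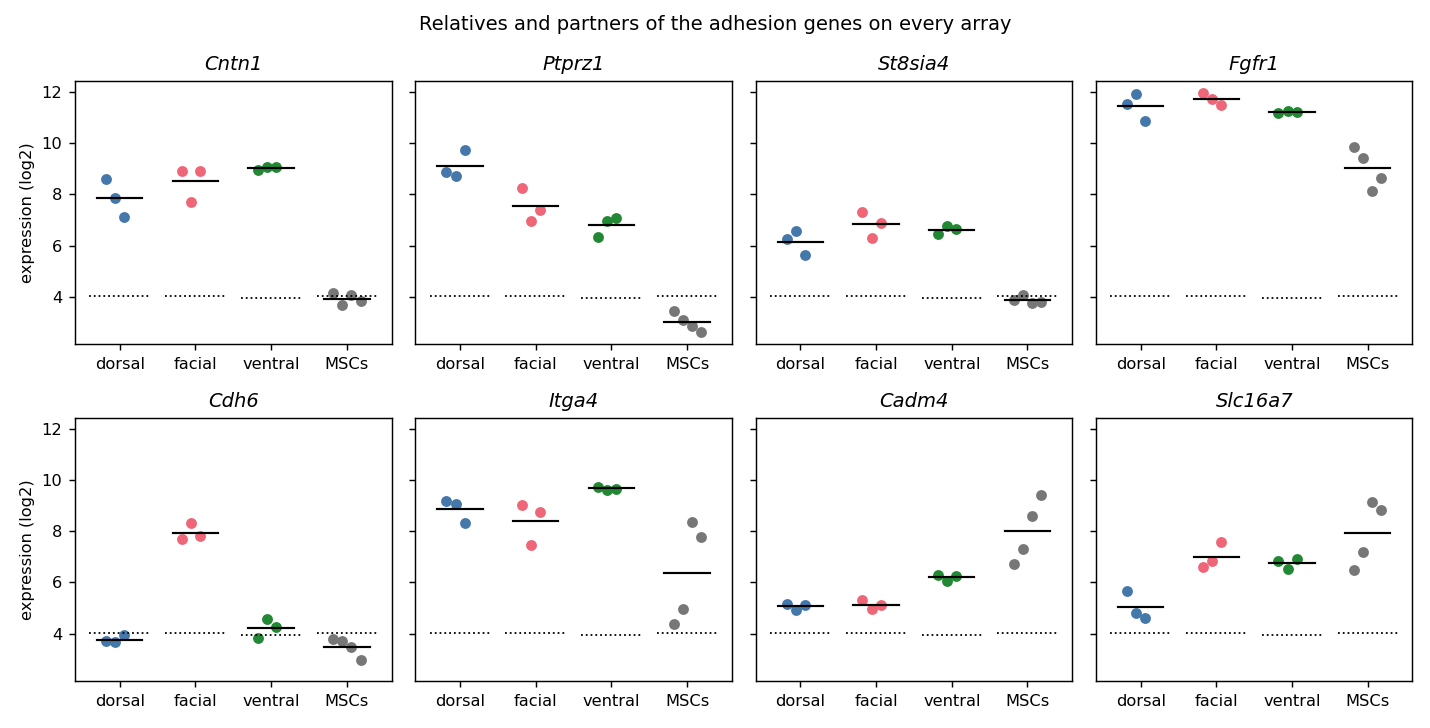
Expression (log2, y axis) of 8 relatives and partners of the adhesion genes on every array, with dots for arrays, solid bars for group means and dotted lines for the upper limit of background. Cntn1, Ptprz1, St8sia4 and Fgfr1 were higher on all SKP arrays than on any MSC array, Cdh6 was high on the 3 facial arrays, and Itga4 and Slc16a7 split the MSC arrays 1 and 2 from 3 and 4.

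Of 21 measured partners of the stromal members, 2 rose in SKPs against MSCs and 6 fell (limma; all genes 13.1% and 12.2%; median log2 difference -0.13). Without facial array 2 the number that rose was 4, without MSC array 3 the number that fell was 3, and with the leukocyte covariate the counts were 0 and 3. Itga4, the alpha4 integrin chain that binds VCAM-1, rose by 2.61 ± 0.66 (adjusted p = 0.0117), and it read 7.47 to 9.71 on the SKP arrays. On the MSC arrays it read 4.36, 4.95, 8.38 and 7.77, so that arrays 3 and 4 overlapped the SKPs. Those were the 2 MSC arrays with the lower Vcam1. Itgb1, its beta1 partner chain, fell by 0.54 ± 0.13 (adjusted p = 0.00721). With the leukocyte covariate neither passed, although the differences stayed near their size, at 2.35 for Itga4 (adjusted p = 0.108) and -0.50 for Itgb1 (adjusted p = 0.0755).

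Spp1, the secreted CD44 ligand osteopontin, was the other partner that rose, by 1.77 ± 0.38 (limma, adjusted p = 0.00458; with the leukocyte covariate 1.43, adjusted p = 0.0783). Among the hyaluronan synthases, Has3 differed by 0.12 (adjusted p = 0.51) and Has2 by -1.01 (adjusted p = 0.188), with Has2 at 4.72 on the third dorsal array and 7.75 to 10.06 on the others. Has1 was above background in MSCs alone, at 5.90 on array 1 and 3.39 to 4.17 on the others, and its call as lower in SKPs (at least 1.28-fold, adjusted p = 0.0488) was lost under 15 of 23 alternatives. Sdc4, encoding syndecan-4, a matrix receptor that works with Thy1, fell by 1.03 ± 0.19 (adjusted p = 0.00153). Itgb3, the integrin chain bound by Thy1, differed by 0.06 ± 0.49 (adjusted p = 0.949) and read 5.09 on the third dorsal array against 7.61 to 8.92 elsewhere. Without that array it rose by 0.42 (adjusted p = 0.0323).

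For embigin, the lactate and pyruvate transporter gene Slc16a7 fell by 1.66 ± 0.44 in SKPs (limma, adjusted p = 0.0154). The MSC arrays read 6.50, 7.20, 9.16 and 8.82, and without array 3 or 4 the call was lost, at -1.25 (adjusted p = 0.0548) and -1.36 (adjusted p = 0.0625). Slc16a1 differed by -0.09 (adjusted p = 0.903). Bsg, encoding basigin, the relative of embigin that escorts some lactate transporters, rose by 0.57 ± 0.09 (adjusted p = 0.00061). It read 10.56 to 11.29 on the SKP arrays and at most 10.40 on the MSC arrays, and its ventral mean of 10.61 was above its MSC mean of 10.23, unlike that of Emb.

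Of the 23 measured stromal and vascular immunoglobulin adhesion genes, 8 rose and 5 fell in SKPs against MSCs (limma; all genes 13.1% and 12.2%; median log2 difference 0.17). With the leukocyte covariate the counts were 4 and 3. Clmp, encoding a junctional adhesion molecule, rose by 2.15 ± 0.44 (adjusted p = 0.0035), and Cadm4, encoding a nectin-like molecule, fell by 2.56 ± 0.38 (adjusted p = 0.00043). Clmp read 10.92 to 11.77 on the SKP arrays and 10.57, 10.13, 8.79 and 7.47 on the MSC arrays. Cadm4 read 4.92 to 6.29 on the SKP arrays and 6.73 to 9.42 on the MSC arrays. Cxadr, the coxsackie and adenovirus receptor gene, was above background in MSCs alone and was at least 1.31-fold lower in SKPs (adjusted p = 0.00117). Jam2 and Pecam1, both genes of endothelial junctions, were below the limit in dorsal SKPs and at least 6.96-fold and 4.48-fold higher in ventral SKPs, and both differences passed. Pecam1 is also 1 of the 11 endothelial markers. Pecam1 in all SKPs against MSCs, at least 1.32-fold higher (adjusted p = 0.0297), and Mcam, at -2.31 (adjusted p = 0.0473), lost their calls under 8 and 17 of 23 alternatives, with single MSC arrays left out among both (without array 4, adjusted p = 0.0961 and 0.164). Mcam read 6.32 and 6.71 on MSC arrays 1 and 2 but 10.56 and 11.09 on arrays 3 and 4. The ventral arrays, at 7.15 to 7.84, lay between these pairs.

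Of 10 measured sheddases of adhesion molecules and their inhibitors, 6 rose in SKPs against MSCs and 0 fell (limma; all genes 13.1% and 12.2%; 7 and 0 at an unadjusted p under 0.05; median log2 difference 0.81). Timp3, the matrix-bound inhibitor of sheddases, rose by 4.51 ± 0.32 (adjusted p = 1.53e-06), with 6.43 to 10.77 on the SKP arrays and 4.06 to 5.41 on the MSC arrays. Mmp9 and Mmp2, the gelatinases, rose by 3.35 ± 0.36 (adjusted p = 3.88e-05) and 1.78 ± 0.16 (adjusted p = 9.08e-06). The genes that rose thus included an inhibitor as well as proteases. Between regions Timp3 was lower in dorsal than in ventral SKPs, at -2.86 (adjusted p = 0.00368). It was also higher in facial than in dorsal SKPs, by 2.54 (limma, adjusted p = 0.0145). That call was lost under 3 of 23 alternatives, the leukocyte covariate among them. Timp1, another inhibitor, was lower in dorsal than in ventral SKPs at -1.77 (adjusted p = 0.0322), but not once any ventral array was left out (adjusted p = 0.0925 to 0.106).

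Of 23 measured NF-kappaB target genes, 7 rose and 2 fell in SKPs against MSCs (limma; all genes 13.1% and 12.2%; median log2 difference 0.26). Nfkbia, the inhibitor that NF-kappaB induces, rose by 1.92 ± 0.23 (adjusted p = 9.79e-05). Irf1 rose by 1.44 (adjusted p = 5.51e-05) and Birc3 by 0.96 (adjusted p = 0.00357). Il6, below the limit in SKPs, was at least 2.48-fold lower there (adjusted p = 0.000223). Icam1, an adhesion gene of the list, fell by 0.60 (adjusted p = 0.00985, and 0.0666 with the replicate block). Between facial and dorsal SKPs 0 of the 23 passed in limma's test, where 1.25% of all genes did, with 4 higher and 1 lower at an unadjusted p under 0.05. Between facial and ventral SKPs again 0 passed, where 6.60% of all genes did, with 3 higher and 1 lower at that unadjusted p. With shares of all genes this small, counts of 0 in a list of this size are near the background. Between dorsal and ventral SKPs 1 passed, where 6.11% of all genes did, with 4 higher and 2 lower at that unadjusted p. That gene was Icam1, with a log2 difference of -1.02 (adjusted p = 0.0119, and 0.0579 without ventral array 1).

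Each member was also set beside all 11012 genes above background in at least 1 group, by the root mean square difference of the mean-centred log2 values over the 13 arrays. This measure is smaller for genes that vary little, so it is read against the member's own deviation from its mean. Cntn6, whose own deviation was 1.77, was nearest to Pax3 at 0.56, a transcription factor of the neural crest and dermomyotome, and Tnfsf11 at 0.56, the cytokine RANKL. Vcam1, with 1.88, was nearest to Cdh6 at 0.67 and then to Cntn6 at 0.79. Emb, with 1.90, lay farther from its nearest genes, Dusp1 at 1.18 and Adcy3 at 1.19. All these genes share the same 13 arrays and group structure.

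Alcam, with an own deviation of 1.14, was nearest to Mtss1 at 0.44 and Ankh at 0.46. Mdga2, with 1.05, was nearest to Cadps and Cldn1, both at 0.55. Cdh7, with 1.17, was nearest to Ccdc134 at 0.55 and Tnfrsf19 at 0.56. Ncam1, with 0.98, was nearest to Myo1c and Camk1d, both at 0.41. For Cd44 the nearest genes were Stk24 and Gabpb2 at 0.12 and 0.14, against an own deviation of 0.28, and for Thy1 they were Fgfr2 and Acat2, both at 0.33, against 0.69. Among the 9 members, Mdga2 and Emb were farthest apart, at 2.84.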

How the data were processed

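RNA was extracted with Trizol and RNeasy columns, biotin-labelled and hybridised to Rat Gene 1.0 ST arrays, per the labels' protocols. The deposited values are log2 expression after RMA at gene level in Expression Console, per the labels and the submitters' processing notes, which also name limma. They were used as deposited. Of 29215 probe sets, 15310 had 1 symbol, 323 had several and 13582 had none in the platform annotation, and symbols were updated through RefSeq. For 527 genes with several probe sets the one with the highest mean over the 13 arrays was kept, which gave 14506 genes.

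One limma 3.58.1 model (R 4.3.3) with a mean per group was fitted to all genes, with Benjamini-Hochberg adjustment per comparison, and was tested on simulated data. The series' design text calls the samples independent isolates. The members, gene lists, motifs and tests were chosen with earlier results of these data known. Named genes were the 9 members, the largest called differences of each list, direct partners, and the 2 genes most like each member. Running the alternatives for partners and lists was added after seeing the data. The precision is limited by the number of arrays.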

Additional observations from a re-analysis of the deposited data

Results flagged for a closer look

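Ncam1 had 1 MSC array apart from the others: the second read 8.86 and the other 3 read 9.26 to 9.32, a gap of 0.872 of the group's range. The 9 members were checked in the 4 MSC arrays, and chance alone puts about 1 in 20 such groups past the limit.

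The difference between 2 SKP regions in their distance from MSCs passed limma's test for 13 of 27 member and region pairs, which are descriptions since the members were chosen from them. The MSC mean cancels in such a difference, so these are the regional calls already given above and no further test. Facial minus dorsal SKPs gave 4.18 for Cntn6, -1.7 for Mdga2, -2.36 for Cdh7, 1.91 for Alcam, 4.48 for Vcam1 and 2.01 for Emb on the log2 scale. Facial minus ventral SKPs gave 4.32 for Cntn6, -2.58 for Mdga2, 2.13 for Alcam, 3.49 for Vcam1 and 5.16 for Emb. Dorsal minus ventral SKPs gave 2.59 for Cdh7 and 3.15 for Emb. The values of Cntn6, Mdga2 and Cdh7 each rest on a lower group that was not above background, so that only bounds hold for them. These were at least 6.37-fold, 2.21-fold and 3-fold in the facial and dorsal pair, 6.79-fold for Cntn6 and 4.05-fold for Mdga2 in the facial and ventral pair, and 3.19-fold for Cdh7 in the dorsal and ventral pair.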

How the results depend on the processing

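Over 63 member and comparison results and 23 alternatives, 1372 values kept direction and side of the threshold, 53 lost a call, 6 gained one and 18 changed sign, none of them called in either setting. With the leukocyte mean as a covariate, 3 members passed between facial SKPs and MSCs, namely Cntn6, Alcam and Vcam1. Under that setting 2 passed between facial and dorsal SKPs, Cntn6 and Cdh7. Without dorsal array 3 and facial array 3, 3 passed between facial and dorsal SKPs. Leaving out 1 array at a time gave 5 to 7 members for SKPs against MSCs, 3 to 4 for dorsal, 4 to 6 for facial and 3 to 4 for ventral SKPs against MSCs, and 3 to 6, 5 to 5 and 2 to 3 for facial against dorsal, facial against ventral and dorsal against ventral SKPs. The labels do not say whether SKP isolates of the same number came from the same animals, and the main fit treats them as unpaired. Correlations of deviations from group means cannot settle this. They were -0.122 to 0.199 for same-number and -0.275 to 0.294 for other-number arrays of different groups. With a replicate block, in which MSC array 4 stands alone and adds nothing, the counts were 6, 3, 4, 3, 4, 5 and 2 in the same order.

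Over all genes, the calls ranged from 2403 to 5004 for SKPs against MSCs (3672 as reported), 1795 to 3022 for dorsal (2397), 808 to 3462 for facial (2762) and 2545 to 5252 for ventral SKPs against MSCs (3545). They ranged from 36 to 258 for facial against dorsal (182), 293 to 2441 for facial against ventral (958) and 327 to 1519 for dorsal against ventral SKPs (886). The call of Vcam1 in SKPs against MSCs was lost under 6 alternatives, that of Alcam in dorsal SKPs against MSCs under 7 and that of Emb in facial SKPs against MSCs under 13. The causes were not tested.

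The sign changes lay in 9 member differences. With 1 array left out, Vcam1 in dorsal SKPs against MSCs ran from -0.56 to 0.0029, Cd44 in ventral SKPs against MSCs from -0.056 to 0.22 and in dorsal against ventral SKPs from -0.060 to 0.22. Ncam1 ran from -0.13 to 0.74 in dorsal against ventral and from -0.37 to 0.50 in facial against dorsal SKPs. Thy1 ran from -0.31 to 0.054 in facial SKPs against MSCs, from -0.036 to 1.31 in facial against dorsal SKPs and from -0.81 to 0.54 in dorsal against ventral SKPs. Without dorsal array 3 and facial array 3 the last was 0.54 and that of Ncam1 -0.13, and with array weights the last was 0.16. Cd44 in ventral SKPs against MSCs was -0.014 with quantile normalization and -0.0056 with array weights. Thy1 was 0.054 in facial SKPs against MSCs with the replicate block and -0.26 in facial against ventral SKPs with the leukocyte covariate. Of the partners in SKPs against MSCs, 5 changed sign. With 1 array left out Itgb3 ran from -0.16 to 0.42, Nlgn1 from -0.021 to 0.063, Slc16a1 from -0.37 to 0.078 and St8sia2 from -0.028 to 0.087. With the leukocyte covariate Itgb3 was -0.71, Slc16a1 0.45, St8sia2 -0.041 and Cd6 0.02, with median centring Nlgn1 was -0.012 and St8sia2 -0.015, and with the replicate block Nlgn1 was -0.021. Levels at or under the olfactory receptor limit carry no order.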
